A study of Mus musculus with 123 samples.

Results

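The comparison set the lung of ovalbumin-sensitized mice at 168 h against the lung of sensitized mice at 0 h and asked whether the end of the time course returned to its start. It used the 8 arrays labelled sensitized at 168 h and the 8 labelled sensitized at 0 h, 16 of the 123 arrays of the series, and read all 13053 genes that the annotation names. The 8 naive mice at 168 h and the 8 at 0 h gave the change over the same interval without sensitization. All animals were on the BALB/c genetic background, the tissue was whole lung, and each array was made from the RNA of a different animal. The naive arm received no sensitization to ovalbumin. The series design states that naive and sensitized animals were both challenged with ovalbumin (OVA), while titles in the naive arm read PBS, and the labels do not settle which of these the naive mice were given. The sources used here do not say whether the 0 h animals were taken just before or just after a challenge, nor how many sensitizing or earlier challenge doses were given. The sources used here give neither age nor sex. Values are log2 intensities, in which 1 unit stands for a 2-fold change.

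Ovalbumin sensitization followed by airway challenge is a standard mouse model of allergic asthma, in which T helper type 2 cells release interleukins 4, 5 and 13. Interleukin 13 drives airway secretory cells towards mucus-making goblet cells through transcription factors such as SPDEF and FOXA3, and interleukin 5 and the eotaxin chemokines bring in eosinophils. Activated B cells become plasma cells, which secrete antibody at a rate that needs an enlarged endoplasmic reticulum and its folding chaperones. Cytokine transcripts are short-lived, whereas changed epithelium and resident plasma cells can outlast a challenge.

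The 8 defining lung markers (Sftpc, Sftpb, Scgb1a1, Ager, Hopx, Cdh5, Foxj1 and Marco) were all measured, and none passed the test between 0 h and 168 h in sensitized mice (1 was higher at an unadjusted p of 0.05), with a median difference of 0.01. Markers of neighbouring tissue were present in some lungs. The mean of 13 squamous epithelium markers lay between 7.23 and 7.70 in the sensitized mice of both times, while naive 0 h mice 1 and 3 stood at 11.51 and 12.18, with the other naive 0 h mice no higher than 7.39. The mean of 13 cardiac muscle markers ran from 9.53 to 11.45 in sensitized mice at 0 h and from 9.26 to 11.37 at 168 h. RNA integrity was read from actin, as its 3′ minus its 5′ probe set on the log2 scale. In sensitized mice it ran from 1.27 through a median of 1.40 to 1.56 at 0 h and from 1.26 through 1.54 to 1.71 at 168 h. In naive mice it ran from 1.28 through 1.40 to 1.55 at 0 h and from 0.80 through 1.23 to 1.45 at 168 h. The part of RNA integrity in the results was not tested.

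In the sensitized lung, many mucus and mitotic genes and a chemokine of the allergic response fell between 0 h and 168 h, while several antibody genes, a plasma cell receptor and 4 endoplasmic reticulum chaperones rose. Of 13053 genes, 800 passed the test at a Benjamini-Hochberg adjusted p of 0.05 (6.13%), with 369 higher (2.83%) and 431 lower (3.3%) at 168 h, and 2772 passed at an unadjusted p of 0.05. Counts of list members at an unadjusted p, with all mice, are to be read beside these 2772 of 13053 genes. Most differences were small: 129 of the 800 reached 1.5-fold and 17 reached 2-fold. The 95% confidence interval of the difference lay wholly within 1.5-fold of 0 h for 12065 genes (92.4%), 531 of which had passed the test, and it lay wholly beyond 1.5-fold for 12 genes (0.0919%). Another 719 genes neither passed the test nor had an interval inside 1.5-fold, so these mice do not place them on either side. In naive mice over the same interval 51 genes passed (0.391%), 26 higher (0.199%) and 25 lower (0.192%), and the interval lay within 1.5-fold for 12319 genes (94.4%). In all, 3 genes passed in both arms. Whole-lung RNA cannot separate fewer cells of a type from less RNA per cell.

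**Figure D1:**
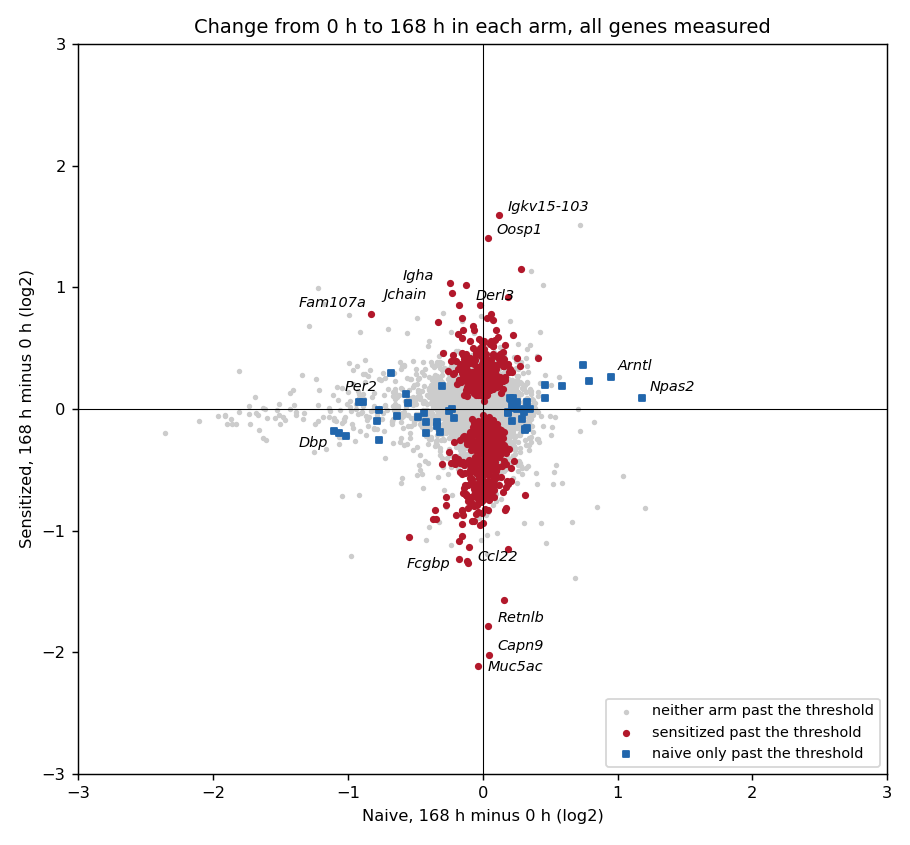
Change from 0 h to 168 h of every measured gene in naive mice (x axis) and in sensitized mice (y axis), both as log2 differences of group means of 8 mice. Red points passed the adjusted p threshold of 0.05 in sensitized mice (800 genes) and blue squares passed in naive mice alone; the sensitized changes spread along the y axis, from Muc5ac at -2.11 to Igkv15-103 at 1.60, and the naive calls include the clock genes Npas2 and Arntl.

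The size of this list rested on a few mice. At 0 h, sensitized mice 1 and 6 had the highest levels of many inflammatory and mitotic genes, with Muc5ac at 11.70 and 11.95 where the other 6 mice lay between 10.14 and 10.71. At 168 h, sensitized mouse 6 had the lowest levels of many mucus and antibody genes, with Clca1 at 10.66 where the other 7 mice lay between 12.92 and 13.79. Without 0 h mouse 1 the count was 406, without 0 h mouse 6 it was 233, without 168 h mouse 1 it was 520, and without both 0 h mice it was 60 (0.46%), of which 27 were higher (0.207%) and 33 lower (0.253%). Leaving out 168 h mouse 6 gave 561 (4.3%), of which 246 were higher (1.88%) and 315 lower (2.41%), and without all 3 mice it was 63 (0.483%), with 36 higher (0.276%) and 27 lower (0.207%). These settings were chosen after the values of the mice were seen, and many of the gene groups below are given with 1 or more of them. The number of calls also depended on which arrays supplied the spread: limma called 469 genes on the 32 arrays of 0 h and 168 h and 158 on the 16 sensitized arrays alone, and an exact permutation test of each gene called 206.

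Many goblet cell and mucus genes fell. Of 22 listed genes 20 were measured, 11 fell and 0 rose at an adjusted p of 0.05, where 3.3% of all genes fell. The list's median difference was -0.87 where the median over all genes was 0.00 and the list's median in naive mice was -0.05. Muc5ac, the gel-forming mucin that allergic airways add, ranged from 10.14 through a median of 10.45 to 11.95 in sensitized mice at 0 h and from 7.54 through 8.71 to 9.19 at 168 h. The groups did not overlap, and Muc5ac fell by 2.11 (SE 0.31, n = 8 in each group, adjusted p = 9.52e-06), a 4.33-fold lower level. In naive mice it ranged from 7.10 to 7.57 at 0 h and from 6.90 to 7.58 at 168 h, and the sensitized lung at 168 h was still 1.38 above the naive lung (adjusted p = 0.00265). Capn9, a calpain protease of mucus-secreting epithelium, ranged from 7.98 through 9.14 to 10.70 at 0 h and from 5.24 through 7.45 to 8.35 at 168 h. At 168 h 5 mice lay below every 0 h mouse, and Capn9 fell by 2.03 (SE 0.33, adjusted p = 3.72e-05).

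Fcgbp, which encodes a protein that binds the Fc part of IgG and is secreted with mucus, ranged from 12.29 through 12.60 to 13.30 at 0 h and from 10.12 through 11.65 to 12.06 at 168 h. The groups did not overlap and Fcgbp fell by 1.26 (SE 0.25, adjusted p = 0.000649), while the naive mice at both times lay between 9.13 and 9.62. Ern2, the endoplasmic reticulum stress sensor of mucus cells, ranged from 7.89 to 9.08 at 0 h and from 7.32 to 7.87 at 168 h, again without overlap, and fell by 0.68 (SE 0.13, adjusted p = 0.000617). The transcription factors that direct the goblet cell fate fell too: Foxa3 by 0.82 (adjusted p = 0.00243) and Spdef by 0.72 (adjusted p = 0.00421). The mucin-branching enzyme Gcnt3 fell by 0.96 (adjusted p = 0.0278), the actin-severing protein Scin by 1.25 (adjusted p = 0.0236), the ion transport regulator Fxyd4 by 1.57 (adjusted p = 0.0249), the trefoil peptide Tff2 by 1.05 (adjusted p = 0.0425) and the mucin glycosyltransferase Galnt12 by 0.34 (adjusted p = 0.0306). Retnlb, a resistin-like goblet cell product that was not on the list, had the third lowest difference among called genes and fell by 1.78 (SE 0.37, adjusted p = 0.00122), from a median of 8.36 to 7.08, with 0 h mice spread from 6.29 to 11.34.

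The other 9 measured mucus genes did not pass. Clca1, a secreted regulator of mucus, had the largest gap between the arms in this list: sensitized mice ranged from 13.91 through 14.05 to 14.29 at 0 h and from 10.66 through 13.50 to 13.79 at 168 h, while naive mice lay between 4.95 and 6.97. All 8 mice at 168 h were below all 8 at 0 h, and the two-sided exact permutation test gave p = 0.000155, the smallest that 8 against 8 mice allow. The limma difference of -0.93 (SE 0.58, adjusted p = 0.357) did not pass. Its SE uses the spread of all 16 groups, which included an SD of 3.23 in sensitized mice at 2 h against 0.14 at 0 h. Of the 20, 4 genes had groups that did not overlap (Clca1, Muc5ac, Fcgbp and Ern2), all lower at 168 h, where 24 of all genes (0.184%) were lower without overlap and 24 (0.184%) higher. The mucin Muc5b differed by -0.54 (adjusted p = 0.331), the disulfide isomerase Agr2 by -1.08 (adjusted p = 0.0928) and the anion exchanger Slc26a4 (pendrin) by -0.93 (adjusted p = 0.238). At 168 h 15 of the 20 mucus genes were higher in sensitized than in naive mice and 0 lower (3.4% of all genes were higher and 1.41% lower) and at 0 h 18 were (14.2% of all genes).

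With 0 h mice 1 and 6 left out the median of the mucus list was -0.49, and without all 3 mice it was -0.38, against -0.87 with every mouse. In the first setting 3 of the 20 genes fell: Muc5ac by 1.75 (adjusted p = 0.00143), Capn9 by 1.59 (adjusted p = 0.0123) and Fcgbp by 1.08 (adjusted p = 0.0337). Without 168 h mouse 6, 6 of them fell, and without all 3 mice, 2 did: Muc5ac by 1.60 (adjusted p = 0.00679) and Capn9 by 1.30 (adjusted p = 0.0478). Retnlb differed by -0.97 (adjusted p = 0.205) without the pair of 0 h mice.

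**Figure D2:**
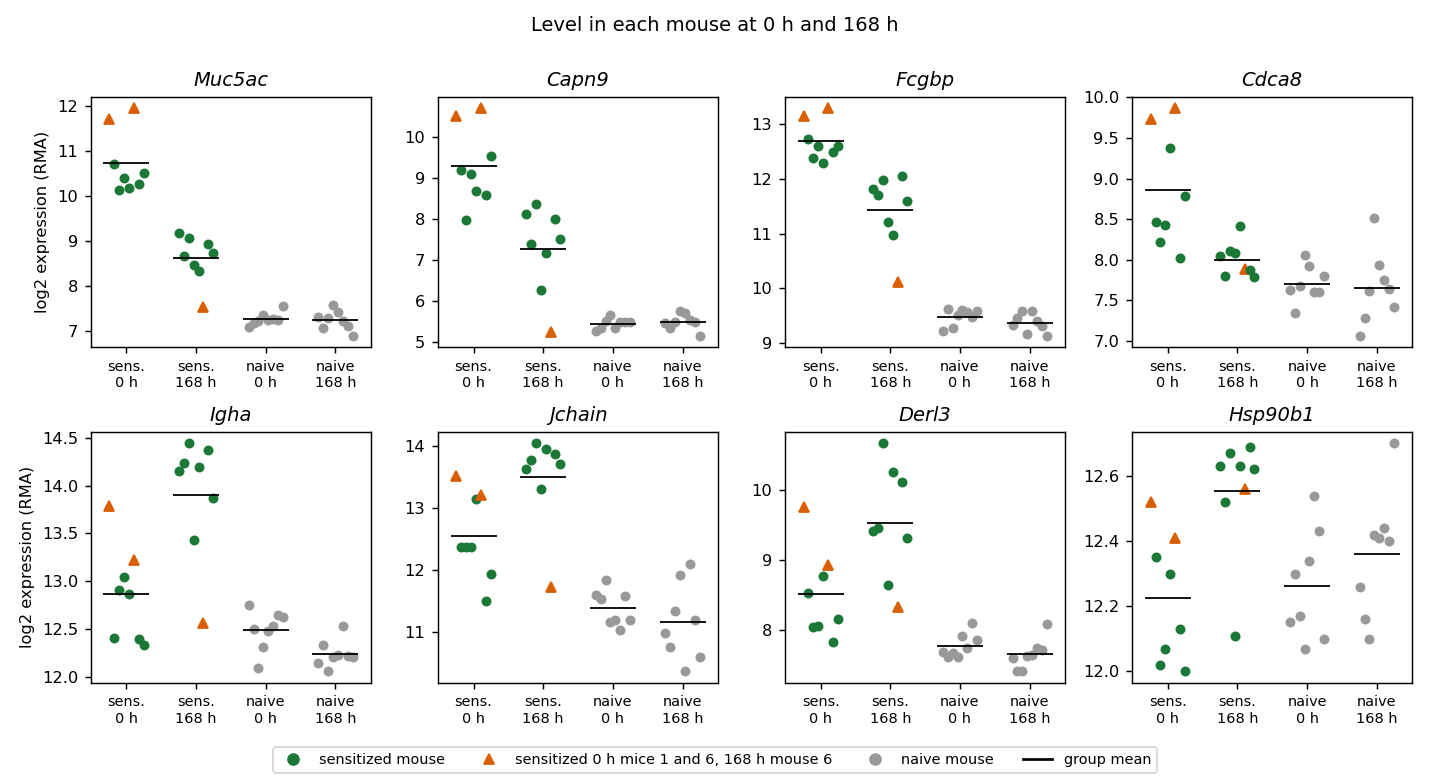
Log2 level of 8 genes in each mouse of the 4 groups, with the group mean as a black bar (8 mice per group); sensitized 0 h mice 1 and 6 and sensitized 168 h mouse 6 are drawn as orange triangles. The sensitized groups do not overlap for Muc5ac and Fcgbp, while for Igha and Jchain 6 of the 8 mice at 168 h lie above every mouse at 0 h and mouse 6 lies among the 0 h mice.

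Some genes of antibody and of the cells that secrete it moved the other way. Of 30 listed immunoglobulin and plasma cell genes 17 were measured, 5 rose and 0 fell, where 2.83% of all genes rose. The median difference was 0.43 where it was -0.07 in naive mice. Igha, the constant region of IgA heavy chains, ranged from 12.33 through 12.89 to 13.79 in sensitized mice at 0 h and from 12.56 through 14.17 to 14.44 at 168 h. At 168 h 6 of the 8 mice lay above every 0 h mouse, and mice 4 and 6, at 13.43 and 12.56, lay among the 0 h mice. Igha rose by 1.03 (SE 0.17, adjusted p = 2.84e-05), and its naive difference was -0.25 (SE 0.17, adjusted p = 0.664). Its 3 probe sets ranged from 1.03 to 1.43 and all 3 rose.

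Jchain, which joins IgA and IgM into polymers, ranged from 11.49 through 12.37 to 13.51 at 0 h and from 11.72 through 13.74 to 14.04 at 168 h, and rose by 0.95 (SE 0.26, adjusted p = 0.0128). Derl3, a derlin of the endoplasmic reticulum's protein disposal pathway, ranged from 7.82 through 8.34 to 9.76 and from 8.32 through 9.44 to 10.67, and rose by 1.02 (SE 0.21, adjusted p = 0.00135). For Jchain 6 mice at 168 h and for Derl3 3 lay above every 0 h mouse, and 168 h mice 4 and 6 were the lowest of their group for both genes. Tnfrsf17, the plasma cell survival receptor BCMA, rose by 0.68 (SE 0.18, adjusted p = 0.0107), with 6 mice at 168 h above every 0 h mouse and mouse 6 below them all. Creld2, a chaperone also on the list of endoplasmic reticulum chaperones, rose by 0.43 (SE 0.12, adjusted p = 0.0171).

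The kappa light chain variable genes Igkv15-103 and Igkv6-20, not on the list, were among the 12 genes with the highest called differences. Igkv15-103 rose by 1.60 (SE 0.50, adjusted p = 0.0384), with a range of 8.36 to 10.11 at 0 h and of 8.27 to 12.95 at 168 h, and did not pass without 0 h mice 1 and 6 (1.51, adjusted p = 0.211). Igkv6-20 rose by 1.15 (SE 0.32, adjusted p = 0.0151), with 4 mice at 168 h above every 0 h mouse and the highest at 9.77. Variable genes are near-identical copies whose probes can take signal from each other, so the named gene is uncertain. The heavy chain Ighm differed by 0.72 (SE 0.50, adjusted p = 0.422), the light chain Iglv1 by 0.62 (adjusted p = 0.0702), Eaf2 by 0.76 (adjusted p = 0.0685) and Mzb1, a plasma cell chaperone, by 0.51 (adjusted p = 0.248). The regulators of the plasma cell fate stood near their 0 h level, with Xbp1 at a difference of 0.08 (adjusted p = 0.576) and Prdm1 at -0.08 (adjusted p = 0.692). Pigr, the epithelial receptor that carries polymeric antibody into the airway, differed by -0.45 (SE 0.20, adjusted p = 0.169). Of 12 B cell markers none passed in limma, with a median difference of -0.04, and 1 was lower at an unadjusted p of 0.05 (0 by the exact test).

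For Igha, Jchain and Derl3, 0 h mice 1 and 6 had the 2 highest levels at 0 h, and 168 h mouse 6 had the lowest at 168 h. Leaving these mice out could only enlarge those differences, so it does not test how steady the rises are. With any 1 mouse left out, Igha, Jchain and Derl3 kept their calls. When 0 h mice 1 and 6 were left out, 7 of the 17 genes rose, with Igha at 1.24 (adjusted p = 1.08e-06), Jchain at 1.22 (adjusted p = 0.0123) and Derl3 at 1.30 (adjusted p = 0.000194). Without all 3 mice 8 rose, Igha by 1.44 and Derl3 by 1.47, and without 168 h mouse 6 alone 7 did. The calls depended on the shared estimate of spread. In limma on the 32 arrays of 0 h and 168 h 2 of the 17 rose, and on the 16 sensitized arrays alone 0 did, with 7 higher at an unadjusted p of 0.05. The two-sided exact permutation test, which uses those 16 mice alone, gave unadjusted p = 0.00513 for Igha, 0.0216 for Jchain and 0.0165 for Derl3.

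Some chaperones of the endoplasmic reticulum rose by small amounts. Of 17 listed genes 15 were measured, 4 rose, 0 fell and 11 did not pass, where 2.83% of all genes rose, and the median difference was 0.22 against 0.01 in naive mice. Hsp90b1, the reticulum's HSP90 (GRP94), ranged around a median of 12.21 up to 12.52 at 0 h and from 12.11 through 12.63 to 12.69 at 168 h, with 6 mice at 168 h above every 0 h mouse, and rose by 0.33 (SE 0.08, adjusted p = 0.00916). Hspa5, its HSP70 (BiP), rose by 0.22 (SE 0.07, adjusted p = 0.0309), with 5 mice at 168 h above every 0 h mouse. Sel1l, the adaptor of the protein disposal complex, rose by 0.11 (SE 0.03, adjusted p = 0.0037). Hyou1 differed by 0.31 (adjusted p = 0.0947) and Herpud1 by 0.27 (adjusted p = 0.0644). The same 4 genes rose without 0 h mice 1 and 6, with Hsp90b1 at 0.41, and without all 3 mice 3 did.

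The promoters of Derl3 and of 3 of the chaperones that rose are shown because they share the endoplasmic reticulum stress response element, the site read by the factors of the unfolded protein response. The sequences come from RefSeq on GRCm38.p6, span the annotated gene start, 300 bases each, and run 5′ to 3′ on the strand of the gene. They are Derl3 at chr10:75893148-75893447 on the plus strand, Hspa5 at chr2:34771840-34772139 on the plus strand, Hsp90b1 at chr10:86705395-86705694 on the minus strand and Creld2 at chr15:88819396-88819695 on the plus strand. Capitals mark each match to the motif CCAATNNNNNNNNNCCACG on either strand.
Derl3: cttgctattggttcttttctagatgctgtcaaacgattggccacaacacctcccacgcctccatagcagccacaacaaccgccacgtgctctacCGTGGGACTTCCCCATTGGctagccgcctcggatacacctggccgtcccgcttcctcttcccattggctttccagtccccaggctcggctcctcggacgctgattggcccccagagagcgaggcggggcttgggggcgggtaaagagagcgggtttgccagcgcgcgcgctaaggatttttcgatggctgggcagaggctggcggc
Hspa5: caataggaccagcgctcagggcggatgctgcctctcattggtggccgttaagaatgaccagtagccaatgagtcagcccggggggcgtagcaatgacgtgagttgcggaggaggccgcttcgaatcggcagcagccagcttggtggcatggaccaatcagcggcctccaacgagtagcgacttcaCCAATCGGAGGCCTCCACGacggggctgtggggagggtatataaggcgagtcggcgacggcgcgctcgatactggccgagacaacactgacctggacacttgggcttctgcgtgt
Hsp90b1: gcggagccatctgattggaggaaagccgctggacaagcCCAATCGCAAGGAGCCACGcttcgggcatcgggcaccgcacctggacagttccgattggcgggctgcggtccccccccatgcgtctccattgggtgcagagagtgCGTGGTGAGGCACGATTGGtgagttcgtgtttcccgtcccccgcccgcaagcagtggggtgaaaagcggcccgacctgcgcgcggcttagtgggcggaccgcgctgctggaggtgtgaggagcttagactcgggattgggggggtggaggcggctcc
Creld2: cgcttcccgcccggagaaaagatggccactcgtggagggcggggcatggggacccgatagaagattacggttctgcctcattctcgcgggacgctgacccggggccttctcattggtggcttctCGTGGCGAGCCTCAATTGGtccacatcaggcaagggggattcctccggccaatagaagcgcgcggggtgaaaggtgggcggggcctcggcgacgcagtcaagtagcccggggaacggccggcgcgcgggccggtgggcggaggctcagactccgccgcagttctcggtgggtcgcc
Of 32851 promoter entries 39 hold this motif (0.119%). Of the 15 measured chaperones 13 had a promoter entry, and 6 of those held it: 3 of the 4 that rose (Hspa5, Hsp90b1 and Creld2, not Sel1l) and 3 of the 9 that did not pass (Pdia6, Canx and Dnajc3). Derl3, from the plasma cell list, held it too. A match is a description of the letters and does not show binding.

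Some heat shock chaperones of the cytosol rose as well. Of 12 listed genes 8 were measured and 3 rose, where 2.83% of all genes did: the small heat shock protein Hspb1 by 0.85 (SE 0.23, adjusted p = 0.0113), the HSP110 family member Hsph1 by 0.56 (SE 0.16, adjusted p = 0.0154) and the HSP90 partner Chordc1 by 0.32 (SE 0.10, adjusted p = 0.0454). The median was 0.50, against 0.10 in naive mice. Hsph1 ranged from 12.82 through 13.10 to 14.01 at 0 h and from 13.58 through 13.77 to 14.30 at 168 h, so the groups overlapped. In naive mice it lay between 13.14 and 14.30 over both times, and the sensitized level at 168 h was not apart from the naive level there (0.20, adjusted p = 0.513). Hspa1a, the inducible HSP70, had the largest difference of the list, 1.51 (SE 0.56), and did not pass (adjusted p = 0.0839). Without 0 h mice 1 and 6 none of the 8 genes passed in limma, with Hspb1 at 0.73 and Hsph1 at 0.56, while 7 were higher at an unadjusted p of 0.05 and the median of the list was 0.49. Without 0 h mouse 6 alone, or without 168 h mouse 1 alone, 0 passed.

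The heat shock element GAANNTTCNNGAA, the site of heat shock factor, is in 198 of the 32851 promoter entries (0.603%). All 8 measured genes of this list had a promoter entry and 3 held the element: Hsph1 and Chordc1, which rose, and Hspe1, which did not pass (0.28, adjusted p = 0.105). The stretches around the matches, in capitals, lie on Hsph1 at chr5:149636287-149636345 on the minus strand and Chordc1 at chr9:18292218-18292316 on the plus strand, and in Chordc1 3 overlapping matches make 1 run.
Hsph1: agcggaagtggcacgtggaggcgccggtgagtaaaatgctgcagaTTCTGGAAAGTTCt
Chordc1: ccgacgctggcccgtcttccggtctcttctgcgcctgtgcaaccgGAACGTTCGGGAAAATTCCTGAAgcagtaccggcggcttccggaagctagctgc

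Genes of cell division fell together. Of 26 listed genes 20 were measured and 18 fell, where 3.3% of all genes did, with a median of -0.68 against -0.04 in naive mice. Cdca8, a subunit of the chromosomal passenger complex, ranged from 8.02 through 8.62 to 9.87 at 0 h and from 7.79 through 7.96 to 8.41 at 168 h, and fell by 0.86 (SE 0.19, adjusted p = 0.00269). The groups overlapped, with 4 mice at 168 h below every 0 h mouse and 0 h mice 1, 5 and 6 at 9.73, 9.38 and 9.87. Hmmr, a spindle-associated hyaluronan receptor, fell by 0.90 (adjusted p = 0.0132), and the kinetochore motor Cenpe by 0.83 (adjusted p = 0.00108). The mitotic kinase Cdk1 fell by 0.73 (adjusted p = 0.0238), its partner Ccnb2 (cyclin B2) by 0.71 (adjusted p = 0.00941) and the replication helicase subunit Mcm5 by 0.70 (adjusted p = 0.0016). Kif11, a spindle motor, differed by -0.56 (adjusted p = 0.0614) and the thymidylate synthase Tyms by -0.09 (adjusted p = 0.597). Cep55 and Sapcd2, outside the list, were among the 12 lowest: Cep55, of the midbody that completes cell division, fell by 1.05 (adjusted p = 0.00319) and Sapcd2, a regulator of spindle orientation, by 1.24 (SE 0.23, adjusted p = 0.0003).

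The mean of the 20 cell cycle genes was 9.78 and 9.77 in 0 h mice 1 and 6, 9.47 in mouse 5 and between 8.46 and 8.94 in the other 5. At 168 h it ran from 8.28 through 8.42 to 8.86, and in naive mice from 8.14 to 8.49 at 0 h and from 7.69 through 8.23 to 8.98 at 168 h, a wider range than in sensitized mice at that time. Without 0 h mice 1 and 6 the median of the list was -0.43 and none of the 20 genes passed in limma, where 33 of all genes (0.253%) fell at an adjusted p of 0.05. At an unadjusted p of 0.05, 16 of the 20 were lower in that setting. Without mouse 1 alone 10 of the 20 fell and without mouse 6 alone 8 did. At 168 h none of the 20 was apart from naive mice in either direction, where 3.4% of all genes were higher and 1.41% lower. A count of 0 is near these shares, and the list's median difference from naive mice there was 0.17. At 0 h all 20 were higher than in naive mice (14.2% of all genes were), with a median of 0.85. Sapcd2 fell by 0.96 without the pair of 0 h mice (adjusted p = 0.0391).

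Promoters of mitotic genes often carry a cell cycle genes homology region, TTTGAA, read by the complex that holds them silent in resting cells. It is short and was found, on either strand, in 5878 of 32851 promoter entries (17.9%). Of the 17 measured cell cycle genes with an entry 10 held it in any of their entries: 9 of the 15 that fell and 1 of the 2 that did not pass. The count over genes and the share over entries are unlike measures. Stretches of 3 that fell are shown, Cdca8 at chr4:124936868-124936949 on the minus strand, Cdk1 at chr10:69352933-69353028 on the minus strand and Ccnb2 at chr9:70421671-70421766 on the minus strand, each with its first match in capitals.
Cdca8: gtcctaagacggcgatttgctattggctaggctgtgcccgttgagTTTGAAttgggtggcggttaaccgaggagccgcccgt
Cdk1: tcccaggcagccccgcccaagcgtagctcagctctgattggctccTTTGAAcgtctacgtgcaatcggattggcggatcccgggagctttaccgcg
Ccnb2: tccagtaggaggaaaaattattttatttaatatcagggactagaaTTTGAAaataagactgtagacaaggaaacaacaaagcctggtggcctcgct

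**Figure D3:**
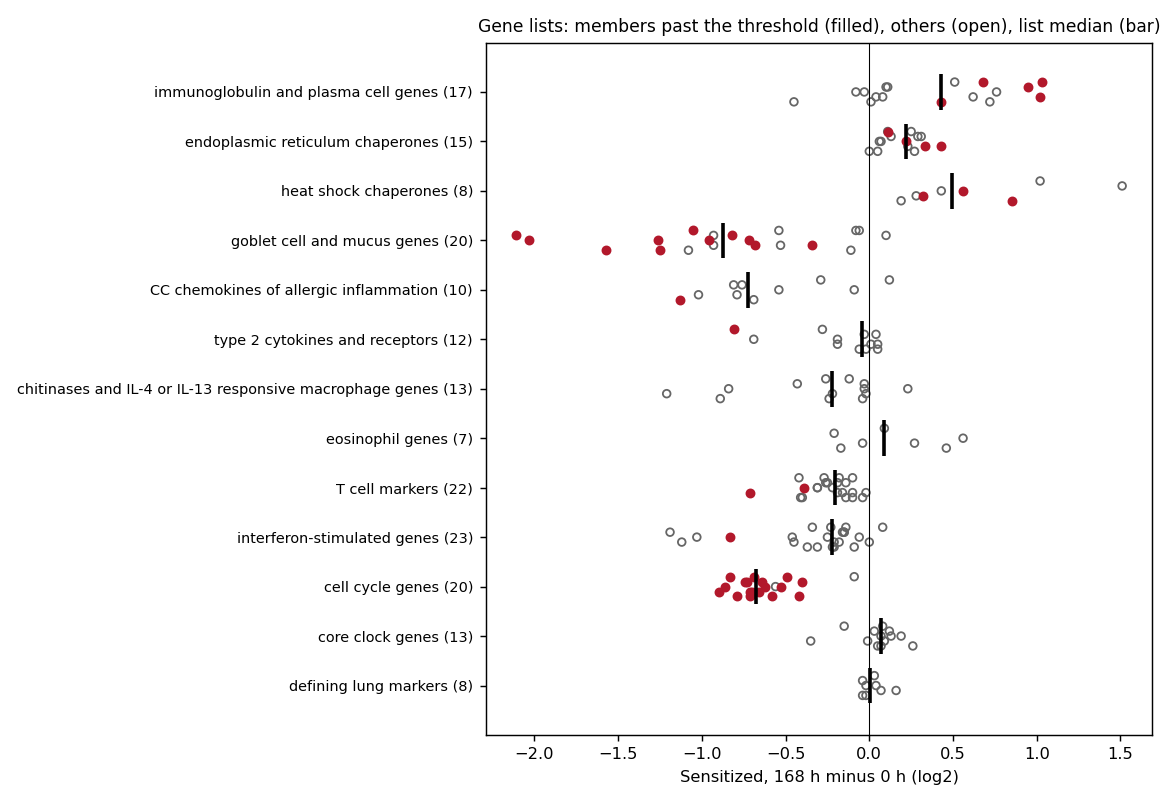
Log2 difference between 168 h and 0 h in sensitized mice (x axis) for the measured members of 13 gene lists, with the number measured in brackets. Filled points passed the adjusted p threshold of 0.05, open points did not, and the bar is the list's median, which was -0.87 for mucus genes, -0.68 for cell cycle genes and 0.43 for immunoglobulin and plasma cell genes.

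Chemokines and cytokines of the type 2 response had mostly negative differences with few calls. Of 12 listed CC chemokines 10 were measured and 1 fell, where 3.3% of all genes did. Ccl22, which draws T cells that carry CCR4, ranged from 8.34 through 9.32 to 10.99 at 0 h and from 7.77 through 8.41 to 8.79 at 168 h, and fell by 1.13 (SE 0.31, adjusted p = 0.0132). Ccl17, its companion ligand, differed by -0.81 (adjusted p = 0.117), the eotaxins Ccl11 by -0.79 (adjusted p = 0.178) and Ccl24 by -1.02 (adjusted p = 0.0547), and Ccl8 by -0.76 (adjusted p = 0.213). At an unadjusted p of 0.05, 6 of the 10 were lower, where 2772 of all 13053 genes passed in either direction. The list's median was -0.72 with all mice, -0.33 without 0 h mice 1 and 6 and -0.19 without all 3 mice that stood apart, and in both of the latter 0 of 10 passed (1 higher and 1 lower at an unadjusted p of 0.05). Ccl8 still stood 2.44 above naive mice at 168 h (adjusted p = 7.67e-07).

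Of 12 measured type 2 cytokine and receptor genes 1 fell, where 3.3% of all genes did: the decoy receptor Il13ra2, by 0.81 (SE 0.25, adjusted p = 0.0359). Without 0 h mice 1 and 6 its difference was -0.30 (adjusted p = 0.761). Il13 ranged from 6.89 through 7.43 to 9.45 at 0 h and from 6.33 through 7.11 to 7.64 at 168 h, a difference of -0.69 (SE 0.32, adjusted p = 0.188). The 2 highest 0 h values, 9.45 and 9.14, belonged to mice 1 and 6. Il4 differed by -0.19 (adjusted p = 0.826), Il5 by -0.28 (adjusted p = 0.621) and the epithelial alarmin Il33 by 0.01 (adjusted p = 0.989). Of 22 T cell markers 2 fell, the checkpoint receptor Ctla4 by 0.71 (adjusted p = 0.0398) and the regulatory T cell factor Foxp3 by 0.39 (SE 0.11, adjusted p = 0.0163), and all 22 differences were below 0, with a median of -0.21. Of 23 interferon-stimulated genes 1 fell, where 3.3% of all genes did: the antiviral GTPase Mx1, by 0.83 (adjusted p = 0.00471). Of these 23 differences 22 were below 0, with a median of -0.22 that was -0.06 without 0 h mice 1 and 6. In that setting Ctla4, Foxp3 and Mx1 differed by -0.49, -0.30 and -0.50 and did not pass.

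Genes of alternatively activated macrophages and chitinases gave no limma call among 13 measured, with a median of -0.22. At an unadjusted p of 0.05, 1 was higher and 5 lower in limma, where 2772 of all 13053 genes passed in either direction, and 3 passed the exact test. Without 0 h mice 1 and 6 the median was -0.04, with 0 higher and 0 lower at an unadjusted p of 0.05. The chitinase-like Chil4 ranged from 11.89 to 14.11 at 0 h and from 7.07 through 12.28 to 12.87 at 168 h, with mouse 6 at 7.07 and the next lowest at 11.21, a difference of -1.21 (SE 0.66, adjusted p = 0.277). At 168 h it stood 5.58 above naive mice (adjusted p = 1.84e-10), and at 0 h naive mouse 1 stood at 12.24, among the sensitized mice. Chil3 differed by -0.24 (adjusted p = 0.395) and the chitinase Chia1 by -0.43 (adjusted p = 0.0951), and both stood above naive mice at 168 h, by 1.34 and 1.20. Of 7 eosinophil genes none passed limma or the exact test, adjusted or unadjusted: the granule protein Prg2 differed by 0.46 (adjusted p = 0.35), the peroxidase Epx by 0.09 (adjusted p = 0.829) and the surface lectin Siglecf, also on alveolar macrophages, by 0.27 (adjusted p = 0.266). The median of the 7 was 0.09. Without 0 h mice 1 and 6 it was 0.22, with 0 calls and 1 gene higher at an unadjusted p of 0.05 in limma.

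Of the immediate early genes, the transcripts that cells make within minutes of a stimulus, 18 were measured and 3 fell, where 3.3% of all genes did. They were Egr1, by 0.45 (adjusted p = 0.0384), Egr2, by 0.72 (adjusted p = 0.0297) and Egr3, by 0.71 (adjusted p = 0.0277). Egr3 ranged from 8.30 through 8.55 to 9.22 at 0 h and from 7.32 through 8.09 to 8.47 at 168 h, and 7 of the 168 h mice lay below every 0 h mouse. Its second probe set gave -0.09 against -0.71 for the brighter set. Without 0 h mice 1 and 6 none of these 3 passed, with differences of -0.48, -0.53 and -0.54, and the median of the list was -0.26 against -0.27 with all mice, with 9 of the 18 lower at an unadjusted p of 0.05. Lists of motile cilia (17 measured), smooth muscle (14), endothelium (20) and fibroblast and matrix genes (25) gave no limma call in either direction, with medians of 0.02, 0.01, 0.07 and 0.05. At an unadjusted p of 0.05, 2 endothelial and 2 fibroblast and matrix genes were higher and 0 genes of cilia and smooth muscle passed, and the exact test unadjusted gave 5, 2, 0 and 0. Of 13 alveolar type I genes 2 fell in limma, Gprc5a by 0.22 (adjusted p = 0.00335) and Pdpn by 0.10 (adjusted p = 0.00806). Of 14 alveolar type II genes 1 rose, where 2.83% of all genes did, and 1 fell: Napsa by 0.16 and Sftpa1 by 0.06. The medians of these lists were 0.01 and 0.02. Without 0 h mice 1 and 6 only Gprc5a of these 4 genes passed. The club cell gene Cldn10, a tight junction protein, fell by 0.50 (adjusted p = 0.00471) and the glutathione transferase Gsto1 by 0.52 (adjusted p = 0.00155), and without 0 h mice 1 and 6 they differed by -0.45 (adjusted p = 0.0843) and -0.37 (adjusted p = 0.117).

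Other genes with the highest and lowest called differences belong to no list. Oosp1, named for a protein secreted by oocytes, ranged from 5.47 through 5.87 to 6.57 at 0 h and from 5.69 through 7.49 to 8.54 at 168 h, and rose by 1.40 (SE 0.21, adjusted p = 1e-05). At 168 h 6 mice lay above every 0 h mouse, and naive mice stayed between 5.39 and 5.89 at both times. Kcne2, a potassium channel subunit, rose by 0.78 (adjusted p = 0.000761), with 7 mice at 168 h above every 0 h mouse, to a mean that differed from the naive one at 168 h by -0.04. The histone gene H3c4 rose by 0.92 (adjusted p = 0.00286), the secreted C1q family member C1qtnf3 by 0.85 (adjusted p = 0.0191) and the GABA receptor subunit Gabrr2 by 0.75 (adjusted p = 0.00096). Ocstamp, a fusion protein of osteoclasts, fell by 1.15 (adjusted p = 0.00913) from a range of 6.64 to 9.72 to one of 6.23 to 6.76, and Mrgprg, a receptor of the Mas family, fell by 1.08 (adjusted p = 0.00286). Without 0 h mice 1 and 6 Oosp1 rose by 1.58 (adjusted p = 2.21e-06), while Kcne2, H3c4, C1qtnf3, Gabrr2, Ocstamp and Mrgprg did not pass, with differences of 0.44, 0.72, 0.56, 0.60, -0.50 and -0.68 and adjusted p from 0.0594 (Gabrr2) to 0.555 (Ocstamp).

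The change in sensitized mice was then set against the change in naive mice in 1 contrast, the sensitized difference minus the naive difference, which 253 genes passed (1.94%), 126 above 0 (0.965%) and 127 below (0.973%). Muc5ac differed between the arms by -2.08 (SE 0.44, adjusted p = 0.00676), Capn9 by -2.07 (adjusted p = 0.0122) and Retnlb by -1.82 (adjusted p = 0.0435). Igha differed by 1.28 (SE 0.24, adjusted p = 0.00124), Oosp1 by 1.37 (adjusted p = 0.00922) and Derl3 by 1.14 (adjusted p = 0.0294). Fam107a, an actin-binding stress gene, differed by 1.61 (SE 0.30, adjusted p = 0.00124): it rose by 0.78 in sensitized mice and fell by 0.83 in naive mice (adjusted p = 0.0133 and 0.0413). Its rise in sensitized mice did not pass without 0 h mouse 6 or without 168 h mouse 1. Zbtb16, a transcription factor induced by glucocorticoids, had a contrast of 2.04 (SE 0.51, adjusted p = 0.0211) although neither arm passed alone, with differences of 0.86 in sensitized and -1.18 in naive mice. Of the 20 mucus genes and the 20 cell cycle genes 2 each passed this contrast, and of the 17 plasma cell genes 2. The contrast was passed by 8 genes without sensitized 0 h mice 1 and 6, by 51 without 0 h mouse 1, by 45 without 0 h mouse 6, by 22 on the 32 arrays alone and by 461 without the arrays that carried squamous epithelium markers, which include naive 0 h mice 1 and 3.

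Naive mice changed in some genes of the circadian clock: of 13 core clock genes 2 rose and 2 fell, and of 9 clock output genes 0 rose and 5 fell, where 0.199% of all genes rose and 0.192% fell. Npas2, a clock activator, ranged from 8.23 through 8.63 to 9.72 in naive mice at 0 h and from 9.34 through 9.96 to 10.46 at 168 h, and rose by 1.18 (SE 0.19, adjusted p = 3.58e-05). Its partner Arntl (BMAL1) rose by 0.95 (adjusted p = 3.58e-05). The repressors Per2 and Per3 fell by 0.92 (adjusted p = 0.0165) and 0.77 (adjusted p = 0.00119), and the output factors Dbp, Hlf and Tef fell by 1.07, 0.79 and 0.48 (adjusted p = 0.00119, 7.59e-05 and 0.00119). The probe set of the sphingosine kinase Sphk2 fell by 1.01 (adjusted p = 0.000479) and the protease inhibitor Wfdc12 by 1.10 (adjusted p = 0.0322). The Sphk2 probe set followed Dbp from mouse to mouse, with 9.74 beside 10.51 in naive 168 h mouse 1 and 11.11 beside 12.18 in mouse 5. In sensitized mice the 2 Sphk2 probe sets differed by -0.22 and -0.03, so the named gene is uncertain. For Wfdc12 naive 0 h mice 1 and 3, the lungs with squamous epithelium markers, stood at 10.99 and 11.52 and the other 6 between 8.48 and 9.22, and without the arrays that carried those markers it differed by -0.48 (adjusted p = 0.258), while Npas2 differed by 1.33 (adjusted p = 6.68e-06). Per2 did not pass without naive 168 h mouse 1 (-0.86, adjusted p = 0.0741) or mouse 4 (-0.82, adjusted p = 0.0678). On the 16 naive arrays alone limma called 0 genes (931 at an unadjusted p of 0.05), with Npas2 at an adjusted p of 0.0611, and the exact test called 0 after adjustment (1010 unadjusted). In sensitized mice none of 13 core clock genes and none of 9 clock output genes passed in either direction (1 core gene lower and 1 output gene higher at an unadjusted p of 0.05): Npas2 differed by 0.09 (adjusted p = 0.841), Per3 by -0.01 (adjusted p = 0.975) and Dbp by -0.20 (adjusted p = 0.628). The difference between the arms passed for Npas2 (-1.10, adjusted p = 0.0173), Per3 (0.75, adjusted p = 0.0367) and Hlf (0.68, adjusted p = 0.0313). The sources used here do not give the hour of day at which animals were taken, and its part in the result was not tested.

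**Figure D4:**
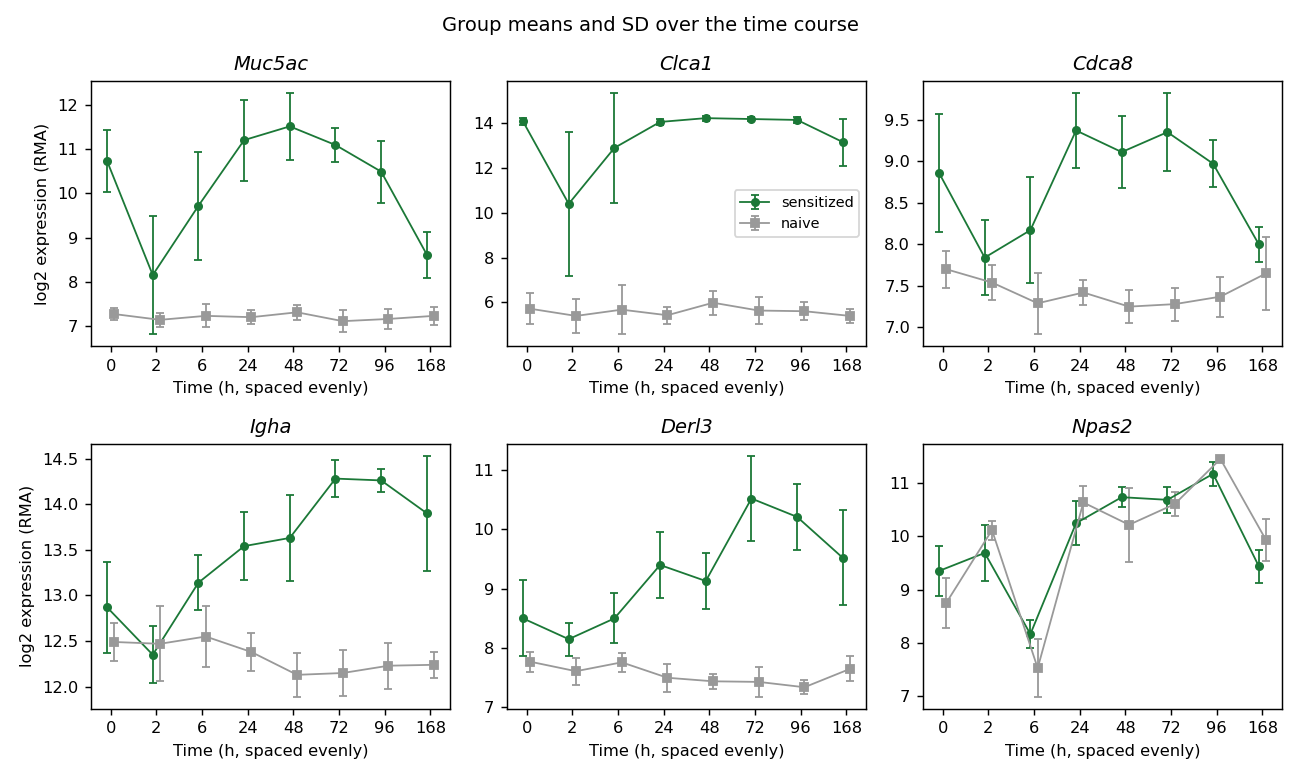
Group mean and SD (bars) of 6 genes at each time in sensitized (green circles) and naive (grey squares) mice, 6 to 8 mice per point, with times spaced evenly on the x axis and log2 level on the y axis. Muc5ac and Cdca8 end below their 0 h level in sensitized mice, Igha and Derl3 end above it after a maximum at 72 h, and Npas2 moves over time in both arms.

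The end of the course was then placed among its other times. Against the same 8 sensitized mice at 0 h, 4202 genes passed at 2 h (32.2%), 7010 at 6 h (53.7%), 5167 at 24 h (39.6%), 476 at 48 h (3.65%), 3589 at 72 h (27.5%) and 2750 at 96 h (21.1%), beside the 800 at 168 h. These comparisons share their 0 h mice. Over all genes the root mean square difference reached 0.36 at 6 h, against 0.16 at 48 h and 0.17 at the end of the course. Muc5ac started at a sensitized mean of 10.73, stood at 8.16 at 2 h and 9.72 at 6 h, then at 11.51 at 48 h, 10.49 at 96 h and 8.62 at 168 h, so its 2 h mean was below its 168 h mean. Igha stood at 12.35 at 2 h, 14.28 at 72 h and 14.26 at 96 h before 13.90 at 168 h, with 12.87 at 0 h, and Derl3 at 8.15, 10.52, 10.21 and 9.52 at these 4 times, with 8.50 at 0 h. Muc5ac therefore ended below its start and Igha and Derl3 above theirs, each between its highest mean and the naive level.

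Genes apart between the arms were chosen on other mice, as those at least 2-fold apart and past the adjusted p threshold at 6, 24 or 72 h. The choice rests on the difference between the arms, not on a change after 0 h, so it includes genes such as Clca1, whose sensitized mean was 14.08 at 0 h and 14.06 at 24 h. Of the 428 genes higher in sensitized mice at 24 h, 138 (32.2%) fell between 0 h and 168 h and 5 rose, with a median difference of -0.43. Of the 347 higher at 72 h, 120 (34.6%) fell and 10 rose, with a median of -0.45, and of the 343 higher at 6 h, 40 (11.7%) fell and 2 rose, with a median of -0.31. The share that fell was 3.3% of all genes. The 10 that rose among those higher at 72 h were Igkv15-103, Oosp1, Igkv6-20, Igha, Derl3, Jchain, Slpi, Tnfrsf17, Reln and Creld2. Of genes lower in sensitized mice, 6 of 121 at 6 h, 4 of 82 at 24 h and 0 of 32 at 72 h rose, where 2.83% of all genes rose, none fell, and the medians were 0.21, 0.25 and 0.23. The first 2 shares are 4.96% and 4.88%. At 168 h 93 of the 428 genes (21.7%) were still higher in sensitized than in naive mice, and 0 were lower. Of all genes 3.4% were higher in that comparison and 1.41% lower. Without 0 h mice 1 and 6 10 of the 428 fell and 4 rose, with a median of -0.20, and without all 3 mice that stood apart 4 fell and 10 rose, with a median of -0.15.

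**Figure D5:**
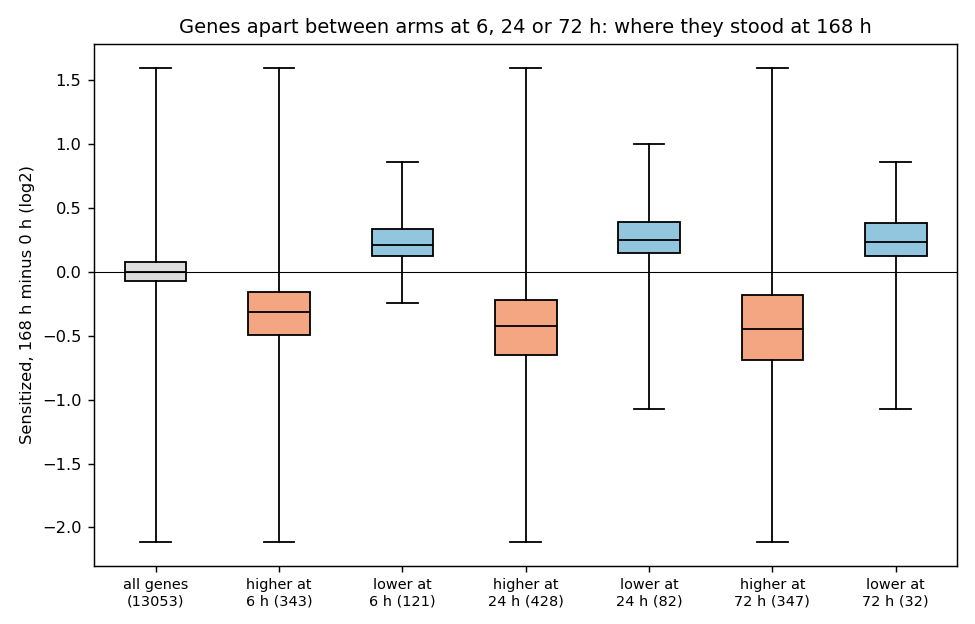
Log2 difference between 168 h and 0 h in sensitized mice (y axis) for all 13053 genes and for the genes higher or lower in sensitized than in naive mice at 6, 24 or 72 h, with the number of genes in brackets. Boxes span the quartiles with the median as a line and whiskers reach the lowest and highest gene; the median is -0.43 for genes higher at 24 h and 0.25 for genes lower at 24 h.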

How the data were processed

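The deposited values are log2 intensities of Affymetrix probe sets, made by the authors with RMA per the submitters' processing notes; the sources used here name no version. RMA as usually run makes arrays alike in their overall signal and shrinks differences between dim probe sets. The RNA was amplified with a 3′ kit, per the labels' protocols. Each gene was read from its brightest probe set by mean across the series (13053 genes, 5672 of them with several probe sets). Medians of the 32 arrays used lay between 9.36 and 9.43, and no normalization was added. Arrays give no counting depth, so their number limits the precision.

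limma 3.58.1 in R 4.3.3 fitted 1 mean per group to all 123 arrays (107 residual degrees of freedom), with Benjamini-Hochberg adjustment within each contrast over all genes and a threshold of 0.05. Every adjusted p comes from limma, and every test is two-sided. Exact permutation tests used all 12870 splits of 8 against 8 mice. The fit was tested on simulated data with independent noise and, for each gene, the same spread in every group. That test does not cover groups of unequal spread or mice that stand apart in many genes. Members, gene lists and named genes were chosen with earlier results of these data known. The genes named are the 12 highest and 12 lowest called, the 8 largest differences between arms, the 6 largest naive ones, up to 4 genes per list and 3 per challenge set, an allergic inflammation panel, and other list members beside their list's count; only part of them is printed. Alternatives changed the arrays, weights, filter, probe sets, normalization, test and mice. No list was tested as a set.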

Additional observations from a re-analysis of the deposited data

Results flagged for a closer look

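In some groups of 8 mice, 1 mouse stood far from the other 7 by Dixon's gap test, which chance alone meets in about 1 in 20 groups; it was met in 48 of 364 gene groups and 28 list groups tested. Sensitized 168 h mouse 6 stood high for Foxp3 (7.99) and low for Scin (6.48), Gcnt3 (5.48), Clca1 (10.66), Ighm (13.27), Jchain (11.72), Chil3 (13.02), Chil4 (7.07) and Chia1 (12.41). Sensitized 0 h mouse 1 stood low for Dbp (11.48), Per3 (11.40), Sphk2 (10.43) and Siglecf (8.49). Sensitized 0 h mouse 2 stood high for Chordc1 (13.16). Sensitized 0 h mouse 6 stood high for Galnt12 (10.23). Sensitized 0 h mouse 7 stood low for Chil3 (13.37). Sensitized 168 h mouse 1 stood high for Chordc1 (13.47) and Cldn10 (11.10). Sensitized 168 h mouse 3 stood high for Xbp1 (12.81) and Cxcl13 (11.37). Sensitized 168 h mouse 4 stood low for Hsp90b1 (12.11). Sensitized 168 h mouse 5 stood high for Hmmr (9.28), Cdk1 (9.96) and Ccnb2 (8.95) and low for Tff2 (9.21).

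The naive groups, used as background, held such mice too. Naive 0 h mouse 1 stood high for Chil4 (12.24). Naive 0 h mouse 3 stood high for Scin (7.17), Iglv1 (9.76), Mzb1 (9.83) and Ccl24 (9.11) and low for Dbp (11.91). Naive 0 h mouse 4 stood high for Cenpe (6.24). Naive 168 h mouse 4 stood high for Fxyd4 (8.96), Slc26a4 (10.65), Retnlb (6.39), Mcm5 (10.26), Il13ra2 (7.37) and Il33 (12.14) and low for Tef (11.84) and Chia1 (11.12). Naive 168 h mouse 6 stood high for Pigr (10.50). Naive 168 h mouse 8 stood high for Il13 (6.99) and low for Muc5b (9.32). Among the 28 list groups tested, those that stood apart were the mean of goblet cell and mucus genes in naive 0 h mouse 1 (7.80, lowest), the mean of CC chemokines of allergic inflammation in naive 0 h mouse 3 (9.32, highest), the mean of interferon-stimulated genes in naive 168 h mouse 6 (9.79, highest), the mean of cell cycle genes in sensitized 168 h mouse 5 (8.86, highest) and the mean of heat shock chaperones in sensitized 0 h mouse 2 (12.31, highest). Other lists were not tested in this way. In 2 of them naive 168 h mouse 4 lay far from its group. Its mean of matrix proteases and inhibitors was 11.49, with the others at most 10.07. Its mean of cardiac muscle markers was 8.68, with the others at least 10.72.

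The change from 0 h to 168 h differed between sensitized and naive mice, by the limma contrast of the changes at an adjusted p of 0.05, for 14 of the genes followed singly. The sensitized change minus the naive change was -2.08 for Muc5ac, -2.07 for Capn9, -1.82 for Retnlb, -1.10 for Npas2, -1.02 for Egr3 and -0.87 for Cenpe. It was 0.68 for Hlf, 0.75 for Per3, 0.91 for Gabrr2, 1.14 for Derl3, 1.28 for Igha, 1.37 for Oosp1, 1.61 for Fam107a and 2.04 for Zbtb16. The values of both arms stand with each gene's description.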

How the results depend on the processing

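Without sensitized 0 h mice 1 and 6, the 800 genes called between 168 h and 0 h became 60, the 253 differing in change between the arms 8, and the 3457 apart between the arms at 0 h 683; without 168 h mouse 6 as well, they were 63, 7 and 699. The calls at 2 h (4202) were 2429 and 2446 in these settings, and those at 48 h (476) rose to 1353 and 1355. Of the genes higher in sensitized mice at 6, 24 and 72 h, 4, 10 and 11 fell without the 0 h pair and 2, 4 and 4 without all 3 mice, and 0 of those lower at 6 h and 24 h rose in either setting. Of the lists, 3 and 2 mucus genes, 0 and 0 cell cycle genes and 0 and 0 heat shock genes passed, and 8 plasma cell genes rose without all 3 mice. Without 168 h mouse 6 alone, 154 genes differed between the arms, 20 of those higher at 6 h fell and 6 mucus genes fell. These 3 settings were chosen after seeing the data.

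On the 32 arrays of 0 h and 168 h, 469 genes passed between the sensitized groups and 22 between the arms' changes, with 11 cell cycle genes lower and 2 plasma cell, 2 reticulum chaperone and 1 heat shock gene higher. On the 16 arrays of an arm, 158 genes passed in sensitized and 0 in naive mice, 8, 19 and 15 genes higher at 6, 24 and 72 h fell, 0 of those lower at 6 h and 24 h rose, 4 mucus and 0 cell cycle genes fell, and 0 genes of the 3 lists that had risen rose. With array weights the counts were 1258 sensitized, 211 naive, 453 between the changes, 1570 between the arms at 168 h, 2468 at 48 h, 6727 at 72 h and 4706 at 96 h; 10 of the genes lower at 6 h rose, as did 9 plasma cell, 10 reticulum chaperone and 6 heat shock genes. Quantile normalization gave 80 naive calls. Leaving out the arrays with squamous markers gave 461 differences between changes. The exact permutation test called 206 genes in sensitized and 0 in naive mice (1010 at an unadjusted p of 0.05; limma 1311).

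Leaving out 1 mouse at a time, counts ranged from 233 to 1195 for sensitized, 21 to 77 for naive, 45 to 524 between changes, 364 to 776 between the arms at 168 h and 2003 to 4033 at 0 h, and 11905 to 12162 genes lay within 1.5-fold. Against 0 h, they ranged from 3299 to 4534 at 2 h, 6639 to 7027 at 6 h, 4681 to 5422 at 24 h, 238 to 730 at 48 h, 2907 to 4076 at 72 h and 2287 to 3053 at 96 h. Of the genes higher at 6, 24 and 72 h, 11 to 62, 63 to 171 and 59 to 151 fell, and of those lower 1 to 9, 1 to 8 and 0 to 2 rose. Mucus genes that fell ranged from 6 to 11, cell cycle genes from 8 to 19, and genes that rose from 4 to 7 (plasma cell), 3 to 5 (reticulum chaperones) and 0 to 6 (heat shock). The naive count was lowest without 168 h mouse 1 (21) and highest without 168 h mouse 7 (77), and the arm difference at 168 h was 364 without naive and 409 without sensitized 168 h mouse 1. Of 52 called genes followed singly, 25 kept their call whichever mouse was left out, 25 lost it without 0 h mouse 6, 19 without 0 h mouse 1, 15 without 168 h mouse 6 and 12 without 168 h mouse 1. No called gene changed direction in any of these settings. The cause of these shifts was not tested. No paired analysis was possible because replicate numbers follow the order of the samples and pair no animals across groups. Signals near background compress differences, and 8 mice a group limit the precision.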

Other observations

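Among other lists, single genes fell between 0 h and 168 h in sensitized mice, where 3.3% of all genes fell. Fdft1, the squalene synthase of cholesterol synthesis, fell by 0.25 (adjusted p = 0.0439, limma), 1 of 9 measured genes of that list, which were all below 0 with a median of -0.10. Cox5a, a subunit of respiratory complex IV, fell by 0.17 (adjusted p = 0.0455), 1 of 17 respiratory chain genes with a median of -0.06. Neither list held a call in limma without sensitized 0 h mice 1 and 6, where the medians were 0.01 and -0.02. Of 13 dendritic cell genes only Ccl22, described above as a chemokine, fell at an adjusted p of 0.05. At an unadjusted p of 0.05 in limma 7 of the 13 were lower and 1 higher, with a median of -0.18. Without sensitized 0 h mice 1 and 6 the dendritic cell median was -0.14, with 1 lower and 0 higher unadjusted. Of 11 lymphoid follicle and germinal centre genes none passed (2 lower at an unadjusted p of 0.05), and of 11 neutrophil markers none passed adjusted or unadjusted, with medians of -0.23 and -0.13. The 9 MHC class II genes had a median of -0.07 and 0 calls (3 lower at an unadjusted p of 0.05, 0 by the exact test). At 168 h 4 of the 9 were higher in sensitized than in naive mice (3.4% of all genes were). In limma 2772 of all 13053 genes passed at an unadjusted p of 0.05 in either direction.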
